A study of Mus musculus with 12 samples.

Results

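The insulin-like growth factor (IGF) system was followed in adipocytes grown from mouse inguinal fat precursors, through 9 genes: the ligands Igf1 and Igf2, the receptor Igf1r, and the binding proteins Igfbp2, Igfbp3, Igfbp4, Igfbp5, Igfbp6 and Igfbp7. They were taken by name from the 22180 genes on the arrays, as the probe set that maps to that gene alone. Each of the 9 had 1 such probe set, so no choice between probe sets was needed. All cells carried the genotype written R26Cre/Prdm16floxEx9, a Cre recombinase at the Rosa26 locus with a floxed exon of Prdm16, and no group of cells without Cre is among the arrays. The group EtOH received ethanol vehicle for 3 days during growth, and the group 4OHT received 1 uM 4-hydroxytamoxifen for the same 3 days. EtOH_Rosi and 4OHT_Rosi had the same pretreatments and also 1 uM of rosiglitazone, a drug that activates PPARgamma, the nuclear receptor that drives fat cell formation. Effects of 4-hydroxytamoxifen itself, of Cre and of a loss of Prdm16 cannot be told apart among these groups. Every group was differentiated in medium that held 10% serum, isobutylmethylxanthine, indomethacin, dexamethasone, 20 nM insulin and 1 nM T3. Each group had 3 arrays, numbered 1 to 3, and no label says that they are separate cultures, so p-values reflect array-to-array spread, part or all of which may be technical.

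IGF-1 and IGF-2 are secreted peptides related to insulin, and both act through the IGF-1 receptor, a tyrosine kinase that signals through insulin receptor substrates to the PI3 kinase-AKT and MAP kinase pathways. The binding proteins hold the IGFs in blood and tissue fluid, which limits or prolongs their action, and proteases release the ligand by cutting them. Fat cell precursors and adipocytes secrete IGF-1 and several of the binding proteins, and IGF-1 at the receptor supports adipocyte differentiation in culture.

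The arrays had medians between 5.97 and 6.05 on the log2 scale, and the medians of all gene differences lay within 0.013 of 0 in each comparison. Prdm16, the targeted gene, ran from 6.49 to 6.84 in EtOH, from 6.33 to 6.59 in 4OHT, from 7.20 to 7.46 in EtOH_Rosi and from 6.63 to 6.70 in 4OHT_Rosi. No source used here places its probe set relative to the floxed exon, and these levels are no measure of excision. All 9 adipocyte markers lay above the median gene level of 6.60 in every group. So did many markers of other cells: all 6 endothelial and all 6 smooth muscle and myofibroblast markers lay above that level in every group, and 6 to 8 of 8 macrophage and leukocyte markers and 6 or 7 of 8 progenitor and stromal markers did so. These levels do not show which cell types the cultures held.

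Promoter sequences are shown for Igf1, the member that was higher after 4-hydroxytamoxifen with rosiglitazone, and for Igfbp4 and Igfbp5, the members with the largest falls under rosiglitazone after 4-hydroxytamoxifen. Each runs 5′ to 3′ in the direction of the gene, from 250 bases before to 50 bases after a RefSeq start site (build GRCm38.p6). Matches to the motifs named after the sequences are in capitals.
Igf1, chr10:87860861-87861160, plus strand: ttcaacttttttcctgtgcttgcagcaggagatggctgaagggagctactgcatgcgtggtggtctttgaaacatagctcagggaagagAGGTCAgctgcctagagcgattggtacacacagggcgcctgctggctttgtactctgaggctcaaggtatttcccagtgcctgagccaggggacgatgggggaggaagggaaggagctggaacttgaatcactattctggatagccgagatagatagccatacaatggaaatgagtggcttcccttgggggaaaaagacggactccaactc
Igfbp4, chr11:99040994-99041293, plus strand: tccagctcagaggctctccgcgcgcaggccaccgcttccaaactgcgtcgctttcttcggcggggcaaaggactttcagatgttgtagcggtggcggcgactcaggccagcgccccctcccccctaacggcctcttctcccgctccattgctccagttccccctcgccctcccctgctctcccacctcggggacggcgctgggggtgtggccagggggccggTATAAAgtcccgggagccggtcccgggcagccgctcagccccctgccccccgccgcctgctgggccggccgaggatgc
Igfbp5, chr1:72874816-72875115, minus strand: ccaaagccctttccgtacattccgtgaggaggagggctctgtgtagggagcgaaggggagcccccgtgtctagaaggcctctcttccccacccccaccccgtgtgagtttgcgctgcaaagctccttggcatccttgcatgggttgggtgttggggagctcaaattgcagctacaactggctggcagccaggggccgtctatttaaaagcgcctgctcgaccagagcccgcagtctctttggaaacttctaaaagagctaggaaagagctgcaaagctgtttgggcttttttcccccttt
All 9 members had at least 1 such window, 13 in all, and each was searched on both strands. The motifs were the TATA box TATAAA, the nuclear receptor core site AGGTCA, the PPARgamma-RXR element (2 core sites in a row with 1 base between them, so each match also holds core sites), the interferon response element (2 copies of GAAA with 2 bases between them), the C/EBP site TTGCNNAA and the GC box GGGCGG. The capitals in Igfbp4 mark a TATA box whose first base lies at position -28, counted from the start site. TATAAA was found in 2 of the 13 windows, those of Igfbp4 and Igfbp6, and in 13.6% of all 32851 promoter windows of that length. The capitals in Igf1 mark a core site at -161, a motif found in 3 of the 13 windows and in 16.3% of all windows. No motif of this set matched in the Igfbp5 or the Igfbp3 window. The full PPARgamma-RXR element and the C/EBP site matched in none of the 13, against 0.0396% and 10.8% of all windows, the interferon element in 1 (an Igf2 window) against 3.44%, and the GC box in 5 against 35.7%. The Igfbp4 window held 27 CpG dinucleotides, the Igfbp5 window 10 and the Igf1 window 6, beside a median of 7 over all windows.

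**Figure D1:**
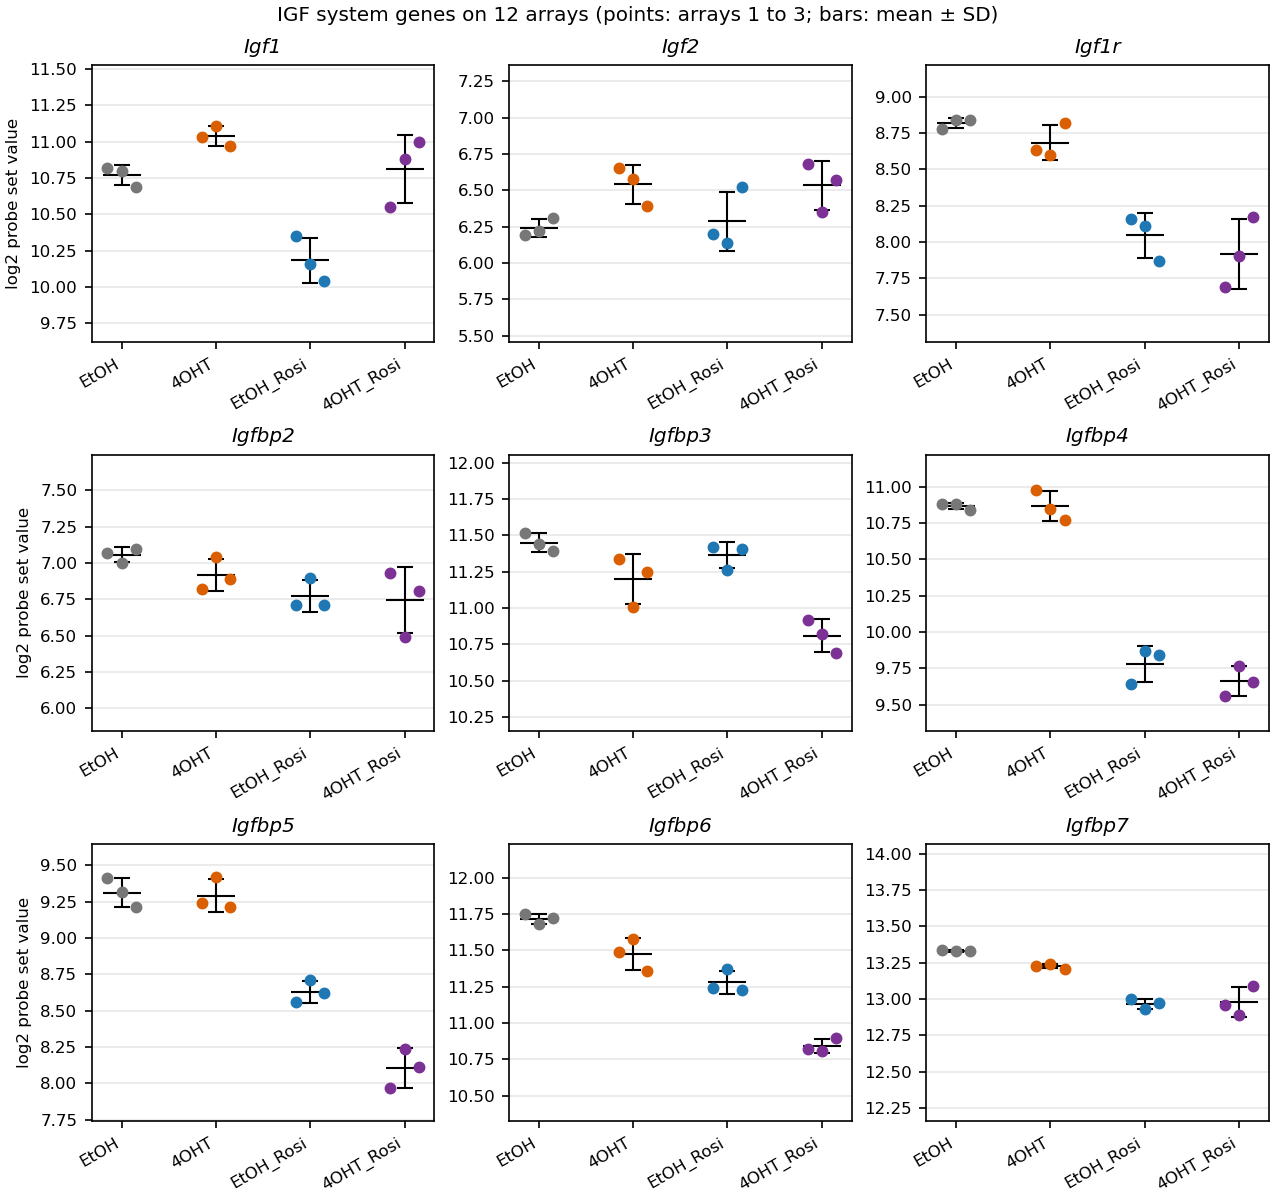
Log2 probe set values (vertical axes, the same span of 1.9 log2 units in each panel) of the 9 IGF system genes in the groups EtOH, 4OHT, EtOH_Rosi and 4OHT_Rosi; points are arrays 1 to 3 from left to right, and bars are the mean and SD of 3 arrays. Igfbp4 and Igf1r drop with rosiglitazone by a similar amount after either pretreatment, Igfbp5 and Igfbp6 are lowest in 4OHT_Rosi, and Igf1 is lowest in EtOH_Rosi.

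Igf1, the ligand that also mediates much of growth hormone action, was lowest in the ethanol-pretreated cells given rosiglitazone. Its log2 values were 10.82, 10.80 and 10.69 in EtOH, 11.03, 11.11 and 10.97 in 4OHT, 10.35, 10.16 and 10.04 in EtOH_Rosi, and 10.55, 10.88 and 11.00 in 4OHT_Rosi. The 3 EtOH_Rosi arrays lay below all 9 others, and 4OHT_Rosi was the most spread group (10.81 ± 0.23, SD, n = 3). Rosiglitazone lowered Igf1 after ethanol 1.5-fold (-0.59 ± 0.11, limma standard error, adjusted p = 0.000655). After 4-hydroxytamoxifen the rosiglitazone difference was -0.23 ± 0.11 (adjusted p = 0.156), with a 95% interval from -0.46 to 0.002 and overlapping arrays. Without 4OHT_Rosi 3 that difference was -0.32 and passed (adjusted p = 0.0452). With rosiglitazone, Igf1 was 1.54-fold higher after 4-hydroxytamoxifen than after ethanol (0.63 ± 0.11, adjusted p = 0.00253), all 3 arrays above the 3 of EtOH_Rosi. Without rosiglitazone the 3 treated arrays again lay above the 3 ethanol arrays, but the difference of 0.27 ± 0.11 did not pass (adjusted p = 0.221); a fit of those groups alone gave adjusted p = 0.0422. Every adjusted p is a Benjamini-Hochberg value from limma, taken over the whole array in that comparison, and a gene is said to rise or fall where it is under 0.05.

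Igf2, the imprinted ligand active mainly in fetal growth, passed in none of the 5 comparisons. Its values were 6.19, 6.22 and 6.31 in EtOH, 6.65, 6.58 and 6.39 in 4OHT, 6.20, 6.14 and 6.52 in EtOH_Rosi, and 6.68, 6.35 and 6.57 in 4OHT_Rosi, around the median gene level of 6.60. The 3 arrays of 4OHT lay above the 3 of EtOH, and those of the rosiglitazone groups overlapped. The 4-hydroxytamoxifen differences were 0.30 ± 0.11 without rosiglitazone (adjusted p = 0.169) and 0.25 ± 0.11 with it (adjusted p = 0.208). With array weights the former was 0.33 and passed (adjusted p = 0.0266). For rosiglitazone the differences were 0.047 ± 0.11 after ethanol and -0.007 ± 0.11 after 4-hydroxytamoxifen, with 95% intervals from -0.19 to 0.28 and from -0.24 to 0.23. The antisense gene Igf2os, which overlaps Igf2 in the RefSeq annotation and was looked at after the values were seen, has its own probe set and also passed in no comparison.

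Igf1r, the receptor through which both ligands signal, fell with rosiglitazone after either pretreatment. Its values were 8.78, 8.84 and 8.84 in EtOH, 8.63, 8.60 and 8.82 in 4OHT, 8.16, 8.11 and 7.87 in EtOH_Rosi, and 7.69, 7.90 and 8.17 in 4OHT_Rosi. All 6 rosiglitazone arrays lay below all 6 others. The fall was 1.71-fold after ethanol (-0.77 ± 0.11, adjusted p = 9.33e-05) and 1.70-fold after 4-hydroxytamoxifen (-0.76 ± 0.11, adjusted p = 0.000166). The 4-hydroxytamoxifen differences were -0.14 ± 0.11 without rosiglitazone (adjusted p = 0.637) and -0.13 ± 0.11 with it (adjusted p = 0.585), and the arrays overlapped in both.

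Igfbp4, an inhibitory binding protein that the protease PAPP-A cuts, had the largest fall of the 9 members with rosiglitazone after ethanol. Its values were 10.88, 10.88 and 10.84 in EtOH, 10.98, 10.85 and 10.77 in 4OHT, 9.64, 9.87 and 9.84 in EtOH_Rosi, and 9.56, 9.77 and 9.66 in 4OHT_Rosi. The rosiglitazone arrays lay below the others with a wide gap, while the pretreatments overlapped. Igfbp4 fell 2.12-fold after ethanol (-1.08 ± 0.078, adjusted p = 3.22e-07) and 2.30-fold after 4-hydroxytamoxifen (-1.20 ± 0.078, adjusted p = 1.61e-07). Among all 22180 genes these were the 234th and the 127th smallest p-values of their comparisons. The difference between 4OHT and EtOH was 0 to 3 decimals, with a 95% interval from -0.17 to 0.17.

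Igfbp5, a binding protein that also attaches to extracellular matrix, showed the widest range of group means together with Igfbp4. It read 9.41, 9.32 and 9.21 in EtOH, 9.24, 9.42 and 9.21 in 4OHT, 8.56, 8.71 and 8.62 in EtOH_Rosi, and 7.97, 8.24 and 8.11 in 4OHT_Rosi. The 4OHT_Rosi arrays were the 3 lowest, those of EtOH_Rosi the next 3, and EtOH and 4OHT overlapped. Rosiglitazone lowered it 1.61-fold after ethanol (-0.68 ± 0.083, adjusted p = 2.48e-05) and 2.27-fold after 4-hydroxytamoxifen (-1.18 ± 0.083, adjusted p = 3.45e-07). With rosiglitazone it fell 1.44-fold after 4-hydroxytamoxifen (-0.52 ± 0.083, adjusted p = 0.00168), while without it the difference was -0.023 ± 0.083 (adjusted p = 0.943).

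Igfbp3, the main IGF carrier of blood, fell after 4-hydroxytamoxifen with rosiglitazone. Its values were 11.52, 11.44 and 11.39 in EtOH, 11.34, 11.01 and 11.25 in 4OHT, 11.42, 11.26 and 11.41 in EtOH_Rosi, and 10.92, 10.82 and 10.69 in 4OHT_Rosi. The 4OHT_Rosi arrays lay below all 9 others. The fall against EtOH_Rosi was 1.47-fold (-0.55 ± 0.088, adjusted p = 0.00168), and rosiglitazone lowered it after 4-hydroxytamoxifen (-0.39 ± 0.088, adjusted p = 0.00499). After ethanol the rosiglitazone difference was -0.087 ± 0.088 (adjusted p = 0.537), with a 95% interval from -0.28 to 0.10. Without rosiglitazone the 4-hydroxytamoxifen difference was -0.25 ± 0.088 (adjusted p = 0.159), although the arrays of 4OHT did not overlap with those of EtOH and were lower.

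Igfbp6, which prefers IGF-2 over IGF-1, stepped down across the groups. It read 11.75, 11.68 and 11.72 in EtOH, 11.49, 11.58 and 11.36 in 4OHT, 11.24, 11.37 and 11.23 in EtOH_Rosi, and 10.82, 10.81 and 10.90 in 4OHT_Rosi. Only 4OHT and EtOH_Rosi had overlapping arrays among these groups, where the lowest 4OHT array was at 11.36 and the highest EtOH_Rosi array at 11.37. Igfbp6 fell with rosiglitazone after ethanol (-0.44 ± 0.067, adjusted p = 0.000165) and after 4-hydroxytamoxifen (-0.63 ± 0.067, adjusted p = 1.18e-05), and fell 1.35-fold after 4-hydroxytamoxifen with rosiglitazone (-0.44 ± 0.067, adjusted p = 0.00127). Without rosiglitazone the 4-hydroxytamoxifen difference was -0.24 ± 0.067 and missed the threshold (adjusted p = 0.0673). It passed under quantile normalization (adjusted p = 0.0424), array weights (0.0297) and an intensity trend with robust eBayes (0.0162).

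Igfbp7, a related protein that binds IGFs weakly, and Igfbp2, which binds both IGFs, changed least with rosiglitazone among the members that fell after ethanol. Igfbp7 was near the top of the scale, with values of 13.33 to 13.34 in EtOH, 13.21 to 13.24 in 4OHT, 12.93 to 13.00 in EtOH_Rosi and 12.89 to 13.09 in 4OHT_Rosi. The highest value of any deposited probe set, controls and unnamed ones included, was 13.91. The rosiglitazone arrays lay below the others, and those of EtOH_Rosi and 4OHT_Rosi overlapped. Igfbp7 fell with rosiglitazone after ethanol (-0.37 ± 0.058, adjusted p = 0.00023) and after 4-hydroxytamoxifen (-0.25 ± 0.058, adjusted p = 0.00665). Igfbp2 read 7.07, 7.0 and 7.10 in EtOH, 6.82, 7.04 and 6.89 in 4OHT, 6.71, 6.90 and 6.71 in EtOH_Rosi, and 6.93, 6.49 and 6.81 in 4OHT_Rosi. These values lay near the median gene level of 6.60. Whether the place of Igfbp7 or Igfbp2 on the scale limited its differences was not tested. The fall of Igfbp2 with rosiglitazone after ethanol was just past the threshold (-0.28 ± 0.10, adjusted p = 0.049). That call was lost without EtOH 1, EtOH 2, EtOH 3, 4OHT 1, 4OHT 3, EtOH_Rosi 1, EtOH_Rosi 3 or 4OHT_Rosi 3 (adjusted p from 0.0541 to 0.136), and under quantile normalization (0.123), array weights (0.0834) or median centring (0.0737).

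**Figure D2:**
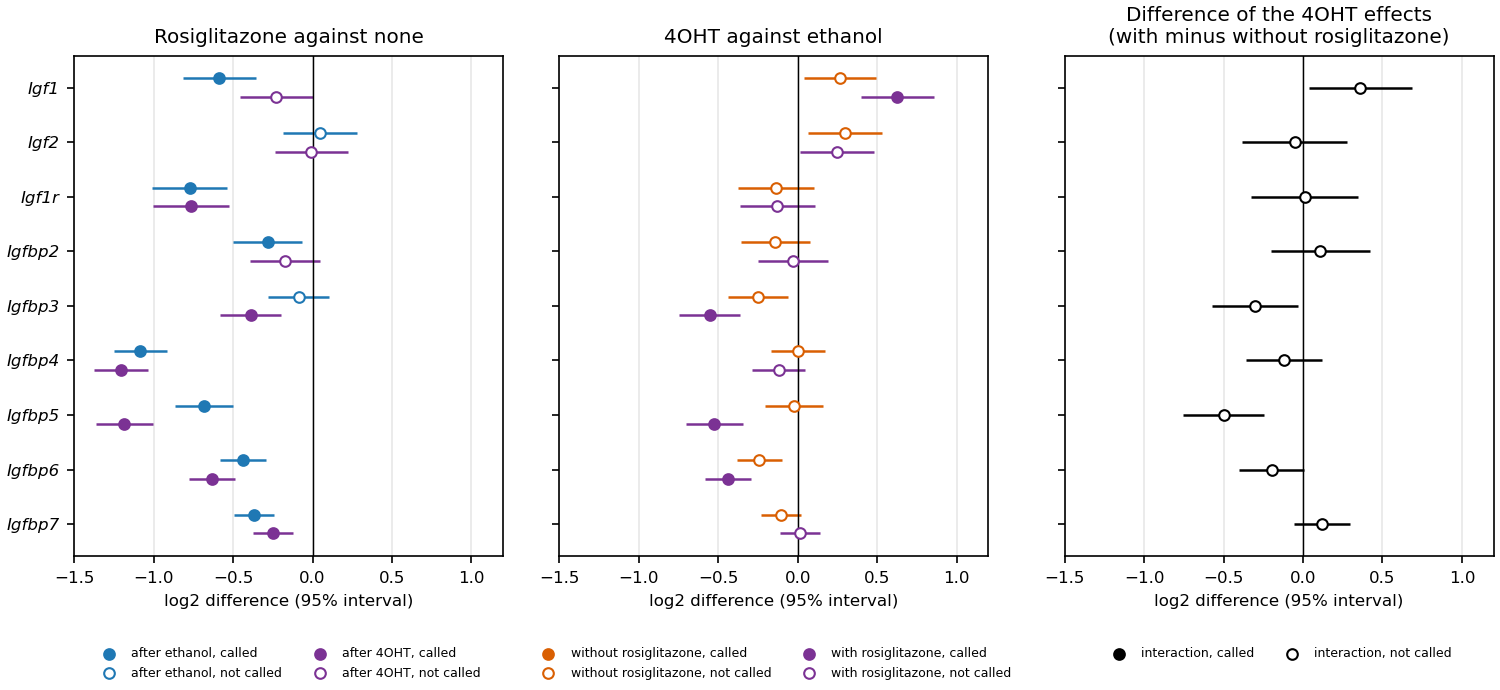
Log2 differences of the 9 IGF system genes with 95% intervals from the limma fit of 12 arrays: rosiglitazone against none, 4-hydroxytamoxifen (4OHT) against ethanol, and the difference of the 4OHT effects; filled points passed an adjusted p under 0.05 over all 22180 genes and open points did not. With rosiglitazone, Igf1 lies to the right of 0 and Igfbp3, Igfbp5 and Igfbp6 to the left, and the Igfbp5 interval in the third panel runs from -0.76 to -0.25.

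By comparison, the 9 members were distributed as follows. With rosiglitazone after ethanol 7 fell and 0 rose, where 30.7% of all genes were called, 16.3% lower and 14.4% higher. The exceptions were Igf2 and Igfbp3, and the median difference of the members was -0.44, beside 0.013 for all genes. After 4-hydroxytamoxifen 6 fell and 0 rose, where 23.7% were called, 12.1% lower and 11.6% higher. These 6 were Igf1r and Igfbp3 to Igfbp7, with a median over the 9 of -0.39 beside 0 for all genes. Arrays did not overlap in 7 and 6 of the 9, where 40.7% and 36% of all genes were so separated. At an unadjusted p under 0.05 the counts were also 7 and 6, against 38.2% and 33% of all genes. The shares of all genes include dim ones. A filter at the 25th percentile of the mean level left fewer genes, yet 6911 were called after ethanol and 5427 after 4-hydroxytamoxifen. Without the filter these counts were 6814 and 5267, so the called share of the brighter genes was higher. The called count also rose with this filter in the comparisons below.

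With rosiglitazone, 4-hydroxytamoxifen raised 1 of the 9 (Igf1) and lowered 3 (Igfbp3, Igfbp5 and Igfbp6), where 8.03% of all genes were called, 4.65% higher and 3.38% lower. At an unadjusted p under 0.05 there were 5 of the 9, the fifth being Igf2, against 20.7% of all genes. The members' median was -0.12, beside -0.007 for all genes, and arrays did not overlap in 4 of the 9, against 21.8% of all genes. Those 4 calls held in each of the 12 fits that left out 1 array. The adjusted p-values in those fits ran up to 0.014 for Igf1, 0.00886 for Igfbp3, 0.0107 for Igfbp5 and 0.00792 for Igfbp6. Without rosiglitazone 0 of the 9 passed in limma, where 3.91% of all genes were called, 2.13% higher and 1.79% lower. At an unadjusted p under 0.05 there were 4 of the 9 (Igf1, Igf2, Igfbp3 and Igfbp6) and 16% of all genes. Arrays did not overlap in 5 of the 9, against 22.9% of all genes.

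The difference between the 4-hydroxytamoxifen effects with and without rosiglitazone passed for 0 of the 9 in limma, where 1.01% of all genes were called, 0.523% higher and 0.482% lower. At an unadjusted p under 0.05 there were 3 members (Igf1, Igfbp3 and Igfbp5) and 14% of all genes. The largest was that of Igfbp5, at -0.50 ± 0.12 (adjusted p = 0.068). It passed without 4OHT_Rosi 2 (-0.57, adjusted p = 0.0486) and with an intensity trend and robust eBayes (adjusted p = 0.0344). For Igf1 it was 0.36 ± 0.15 (adjusted p = 0.292), with a 95% interval from 0.037 to 0.68, and for Igfbp3 -0.30 ± 0.12 (adjusted p = 0.286), from -0.57 to -0.034. So a call of Igf1, Igfbp3, Igfbp5 or Igfbp6 with rosiglitazone and none without it is not shown to be a difference between those conditions. The Igf1r interval, from -0.33 to 0.35, was the widest among the members.

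Markers of other cells moved with rosiglitazone as well. Their counts stand beside 30.7% of all genes called after ethanol (14.4% higher, 16.3% lower) and 23.7% after 4-hydroxytamoxifen (11.6% higher, 12.1% lower). Of the progenitor and stromal markers 7 of 8 fell after ethanol and 7 of 8 after 4-hydroxytamoxifen, with medians of -1.26 and -0.96. Their mean level ran from 9.47 to 9.56 in the EtOH arrays and from 8.33 to 8.59 in EtOH_Rosi. The macrophage and leukocyte list had 7 and 5 of 8 lower (medians -0.57 and -0.41), the endothelial list 6 and 5 of 6 (-0.74 and -0.52), and the smooth muscle and myofibroblast list 6 and 4 of 6 (-1.03 and -0.59). Of the adipocyte markers 5 of 9 rose and 1 fell after ethanol (median 0.22), and 3 rose and 1 fell after 4-hydroxytamoxifen (median 0.083). The latter fall was lost without any of the 3 arrays of 4OHT, 4OHT_Rosi 1 or 4OHT_Rosi 3. Whether the cultures held several cell types was not tested. If they did, fewer cells of a type and less RNA per cell cannot be told apart. The part of these markers in the falls of Igf1, Igf1r and the binding proteins was not tested. Between 4OHT_Rosi and EtOH_Rosi 8.03% of all genes were called, 4.65% higher and 3.38% lower. The adipocyte list had 0 of 9 called there in limma and a median of 0.08. The progenitor list had 0 of 8 higher and 1 lower, with a median of 0.088; without 4OHT_Rosi 1 it had 2 higher and 0 lower, without EtOH_Rosi 1 it had 1 higher and 0 lower, and without 4OHT_Rosi 2 it had 0 lower. The macrophage list had 0 higher and 1 lower, a count that went to 0 when any EtOH_Rosi or 4OHT_Rosi array, EtOH 2 or 4OHT 2 was dropped, and a median of -0.14. The endothelial list had 1 of 6 higher and a median of -0.077. The smooth muscle list had a median of 0.53 and 2 of 6 higher. This count went to 5 when EtOH_Rosi 1 was dropped, and to 1 when any one of 4OHT 1, EtOH 2, 4OHT 2, EtOH 3, 4OHT 3, 4OHT_Rosi 3 or EtOH_Rosi 3 was. The part of these markers in the differences of Igf1, Igfbp3, Igfbp5 and Igfbp6 was not tested either.

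**Figure D3:**
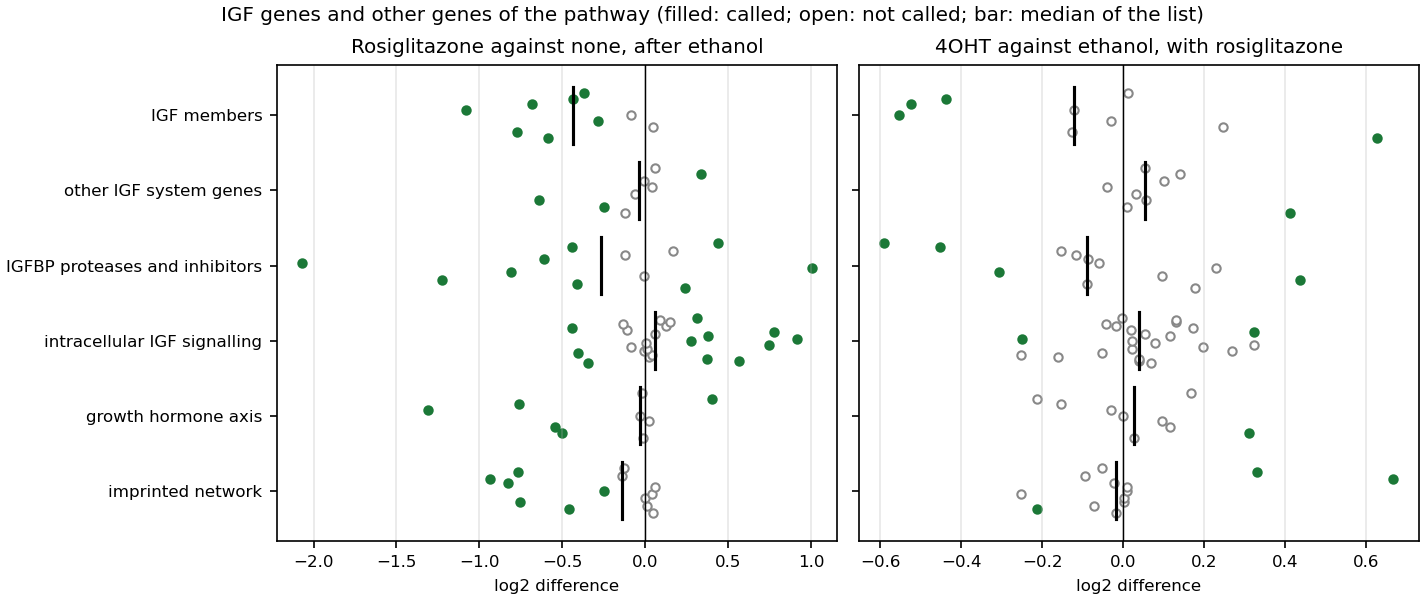
Log2 differences (horizontal axes) of the 9 IGF genes and of 5 lists of other genes of the pathway (vertical positions), for rosiglitazone after ethanol and for 4-hydroxytamoxifen with rosiglitazone; each point is a gene, filled where its adjusted p was under 0.05, and the bar is the median of the list. In the left panel the bar of the IGF genes stands at -0.44 and that of intracellular signalling at 0.06.

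The other genes of the system went in several directions with rosiglitazone. The counts of the 5 lists stand beside 30.7% of all genes called after ethanol (14.4% higher, 16.3% lower) and 23.7% after 4-hydroxytamoxifen (11.6% higher, 12.1% lower). For 4-hydroxytamoxifen against ethanol they stand beside 3.91% without rosiglitazone and 8.03% with it. For the difference of these effects the share was 1.01%. It passed for 0 of 8 further IGF system genes, 0 of 12 proteases and inhibitors (1 with array weights) and 0 of 9 growth hormone axis genes. In any list, a call with rosiglitazone and none without it does not by itself show a difference between those conditions. Nothing particular to a list is read from these counts. Among 8 further IGF system genes 1 rose and 2 fell after ethanol, a called share near that of all genes. The rise was in the insulin receptor gene Insr (0.34 ± 0.056, adjusted p = 0.000357). The falls were in Igfals, the acid-labile subunit that joins IGFBP3 in blood (-0.64 ± 0.085, adjusted p = 4.92e-05), and Igf2r, the receptor that clears IGF-2 (-0.25 ± 0.058, adjusted p = 0.00482). Insr (0.25, adjusted p = 0.00491) and Igfals (-0.74, adjusted p = 2.52e-05) did the same after 4-hydroxytamoxifen. The Igf2r fall there (-0.18, adjusted p = 0.0394) was lost without EtOH 2, 4OHT 1, 4OHT 2, 4OHT 3, 4OHT_Rosi 1 or 4OHT_Rosi 2 (adjusted p up to 0.14). Insr rose and Igf1r fell with rosiglitazone after either pretreatment. For 4-hydroxytamoxifen, 1 of the 8 rose without rosiglitazone, Insr (0.23, adjusted p = 0.0408), a call lost in 8 of the 12 fits that left out 1 array, those without any EtOH or 4OHT array, EtOH_Rosi 1 or EtOH_Rosi 2 (adjusted p up to 0.144), and 0 of the 8 passed with quantile normalization. With rosiglitazone 1 rose, Igf2bp3, an RNA-binding protein gene chosen after its value was seen (0.41, adjusted p = 0.0396). That call was lost without EtOH 1, EtOH 2, any EtOH_Rosi array, 4OHT_Rosi 1 or 4OHT_Rosi 3 (adjusted p up to 0.146), and 0 of the 8 passed with array weights or in a fit of those groups alone.

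Of 12 proteases that can cut binding proteins and inhibitors of such proteases, 3 rose and 6 fell with rosiglitazone after ethanol, and 2 rose and 5 fell after 4-hydroxytamoxifen. The serine protease genes of the HtrA family moved apart: Htra1, whose product cuts IGFBP5, fell by 0.81 ± 0.057 after ethanol (adjusted p = 2.57e-07) and Htra3 rose by 1.00 ± 0.067 (adjusted p = 1.75e-07). After 4-hydroxytamoxifen the differences were -0.89 and 0.80. The metalloproteinase gene Adamts1 fell by 1.22 ± 0.078 after ethanol (adjusted p = 1.14e-07). The widest difference of the list was in the matrix metalloproteinase gene Mmp3, chosen after its values were seen, which fell after ethanol (-2.07 ± 0.16, adjusted p = 4.63e-07) and after 4-hydroxytamoxifen (-1.6 ± 0.16, adjusted p = 6.18e-06). With rosiglitazone, 4-hydroxytamoxifen raised Adamts1 (0.44 ± 0.078, adjusted p = 0.00359) and lowered 3 of the 12, where 8.03% of all genes were called. One of these was Htra1 (-0.31 ± 0.057, adjusted p = 0.00451). The others, chosen after their values were seen, were Stc1 (-0.45, adjusted p = 0.00177) and Stc2 (-0.59, adjusted p = 0.00296), which encode stanniocalcins that inhibit PAPP-A. Adamts1 was the only rise in that comparison, and Htra3 was added to it without 4OHT_Rosi 3. Pappa, the gene of PAPP-A, also chosen after its values were seen, did not pass there (-0.087, adjusted p = 0.821). Its rosiglitazone difference was -0.61 after ethanol (adjusted p = 0.00831) and -0.36 after 4-hydroxytamoxifen (adjusted p = 0.132). The latter passed without 4OHT_Rosi 3 (adjusted p = 0.000556). Without rosiglitazone, 4-hydroxytamoxifen raised 1 of the 12 (Htra3, 0.43, adjusted p = 0.0026) and lowered 2, Stc1 (-0.35) and Htra1 (-0.23), where 3.91% of all genes were called. That count of falls was 0 without EtOH 1, 4OHT 1, 4OHT 2 or 4OHT 3, 1 without EtOH 2, EtOH 3, EtOH_Rosi 1, EtOH_Rosi 2 or 4OHT_Rosi 2, and 4 without 4OHT_Rosi 3.

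Inside the cell, 8 of 23 measured signalling genes rose and 3 fell with rosiglitazone after ethanol, with a median of 0.06, and 7 rose and 6 fell after 4-hydroxytamoxifen. That is 11 and 13 of 23 called, where 30.7% and 23.7% of all genes were. The latter 6 falls were 3 without 4OHT_Rosi 2. Pik3cb, a catalytic subunit gene of PI3 kinase, rose by 0.78 ± 0.062 after ethanol (adjusted p = 7.55e-07) and by 1.10 after 4-hydroxytamoxifen (adjusted p = 5.42e-08). The kinase gene Mtor rose by 0.92 ± 0.064 (adjusted p = 2.36e-07) and 0.52 (adjusted p = 4.59e-05), and the receptor substrate gene Irs2 by 0.75 ± 0.098 (adjusted p = 4.5e-05) and 1.05 (adjusted p = 4.02e-06). With rosiglitazone, 4-hydroxytamoxifen raised Pik3cb (0.32 ± 0.062, adjusted p = 0.00595) and lowered Mtor (-0.25 ± 0.064, adjusted p = 0.0289), 2 of the 23, where 8.03% of all genes were called. The Mtor call was lost without EtOH_Rosi 2, EtOH_Rosi 3, 4OHT_Rosi 1, 4OHT_Rosi 2 or 4OHT_Rosi 3, and Irs2 (0.32, adjusted p = 0.0619) passed without 4OHT_Rosi 1. The count of 2 was 5 with an intensity trend, 4 with the filter on low levels and 1 in a fit of those groups alone. Without rosiglitazone 0 of the 23 passed in limma, where 3.91% of all genes were called, while 3 did with array weights, 2 with an intensity trend, 1 in a fit of those groups alone and 1 without 4OHT_Rosi 3. The difference of these effects passed for 0 of the 23 in limma. It was 0.33 ± 0.088 for Pik3cb (adjusted p = 0.109) and -0.40 ± 0.090 for Mtor (adjusted p = 0.0585, and 0.0408 without EtOH 1). That count was 2 with array weights and 1 with an intensity trend, quantile normalization or the filter on low levels.

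In the growth hormone axis, which drives Igf1 in liver, 1 of 9 rose and 4 fell with rosiglitazone after ethanol, and 0 rose and 4 fell after 4-hydroxytamoxifen. The receptor gene Ghr fell by 0.50 ± 0.063 (adjusted p = 3.41e-05) and 0.40 (adjusted p = 0.000336). The feedback inhibitor genes Socs2 (-1.31 and -1.25) and Socs3 (-0.76 and -0.64) fell too. With rosiglitazone, Ghr was the only gene of this list to pass for 4-hydroxytamoxifen, where 8.03% of all genes were called, and it rose (0.31 ± 0.063, adjusted p = 0.00839). In a fit of those groups alone 0 genes of the list passed, so the Ghr call was lost, and with quantile normalization 2 passed. Of 13 measured genes of the imprinted network in which Igf2 is usually placed, 0 rose and 6 fell with rosiglitazone after ethanol, and 0 rose and 7 fell after 4-hydroxytamoxifen, 4 without 4OHT 2. Ndn, Mest and Plagl1 fell by 0.94, 0.83 and 0.77 after ethanol, while Igf2 did not pass. With rosiglitazone, Ndn (0.67 ± 0.073, adjusted p = 9.84e-05) and the zinc finger gene Plagl1 (0.33 ± 0.070, adjusted p = 0.0107) rose after 4-hydroxytamoxifen, and 1 gene fell, Dcn (-0.21, adjusted p = 0.0299, chosen after its value was seen), a call lost without EtOH_Rosi 1, EtOH_Rosi 3, 4OHT_Rosi 1 or 4OHT_Rosi 3. In that comparison 8.03% of all genes were called. Without rosiglitazone 1 of the 13 rose and 2 fell, where 3.91% of all genes were called. Among them Mest fell by 0.59 (adjusted p = 0.00024). The others, chosen after their values were seen, were Cdkn1c (0.30, just under the threshold, called in 2 of the 12 fits that left out 1 array, those without EtOH_Rosi 2 or EtOH_Rosi 3) and Gatm (-0.53, adjusted p = 0.0212, lost without EtOH 1, EtOH 2 or any 4OHT array). The difference of the 4-hydroxytamoxifen effects passed for Mest (0.57 ± 0.094, adjusted p = 0.0156, lost without 4OHT 1, at 0.0566) and Ndn (0.54 ± 0.10, adjusted p = 0.0326), where 1.01% of all genes were called. The Ndn call remained in 2 of the 12 fits, those without EtOH_Rosi 1 or 4OHT_Rosi 1, and was lost in the others, where its adjusted p ran up to 0.0927. Of the genes named here, Igf2r belongs to more than 1 of these lists.

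Across the 12 arrays, which share 4 group means, the members' profiles were similar to different degrees. Pearson's r was 0.94 between Igfbp4 and Igfbp5, 0.94 between Igfbp5 and Igfbp6, 0.93 between Igf1r and Igfbp4 and 0.94 between Igf1r and Igfbp7. The correlation of Igf1 with the binding proteins ran from -0.36 (Igfbp3) to 0.56 (Igfbp7), and that of Igf2 from -0.53 (Igfbp3) to -0.087 (Igfbp4). After subtraction of the group means the r of Igfbp4 and Igfbp5 was 0.57 and that of Igf1r and Igfbp4 was -0.15, so the latter similarity lay between the groups. Among genes at or above the median level, the 2 most like each member by Pearson's r over the arrays were Arhgap1 and Trim8 for Igf1 (0.97 for both), Igdcc3 (0.88) and Fbxo7 (0.86) for Igf2, and P3h3 and Myo9b for Igf1r (0.99 for both). For the binding proteins they were Cetn4 (0.92) and Fem1b (0.91) for Igfbp2, Ogt and Trip10 (0.93 for both) for Igfbp3, Tmem176b and Col4a2 (0.99 for both) for Igfbp4, Naglu (0.99) and Ahnak2 (0.98) for Igfbp5, Cdkn3 and Gamt (0.99 for both) for Igfbp6, and Sox4 and the stromal marker Pdgfrb (0.99 for both) for Igfbp7.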

How the data were processed

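RNA of mouse adipocytes was measured on 12 Affymetrix arrays. The authors deposited log2 probe set values (41345 probe sets by 12 arrays), made with Affymetrix Expression Console per the submitters' processing notes. Which version, summary and normalization were used was not stated in what was read here. Gene names came from the platform annotation, updated by Entrez ID through a RefSeq table (GRCm38.p6): 23521 probe sets had 1 gene symbol, 1814 several and 16010 none. The brightest probe set per gene was kept, which left 22180 genes, with no filter on dim genes.

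A limma 3.58.1 model (R 4.3.3) took all 12 arrays and all genes, with a mean for each group, eBayes and 5 contrasts. Genes with a Benjamini-Hochberg adjusted p under 0.05 were called. The fit was tested on simulated data. The members and lists were chosen with earlier results of these data known. The genes named are the members, the 3 genes of each pathway list with the smallest p in any comparison, and the 2 genes most correlated with each member; any other was chosen after its values were seen. Predicted genes, small RNAs and olfactory and vomeronasal receptors were passed over in the last. Members of a list with no probe set of their own were not analysed here. The alternatives tried were quantile normalization, median centring, array weights, robust eBayes with an intensity trend, a replicate block, fits of single pairs of groups, a filter at the 25th percentile, the mean of all probe sets, and leaving out each array. Counts and calls of pathway and marker genes under these settings were added after seeing the data. Depth does not apply to arrays; their number limits the precision. Python 3.11.15 with matplotlib 3.10.9 drew the plots.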

Additional observations from a re-analysis of the deposited data

How the results depend on the processing

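Over all members, comparisons and alternatives, 848 differences kept their direction and their side of the threshold, 12 lost a call, 8 gained one and 23 changed sign. Many of the 848 could not change direction. The replicate block, the fits of single pairs of groups, the intensity trend and the filter leave a member's log2 difference as it was. So does the mean of all probe sets, since no member had several. Leaving out an array of a group outside a comparison does the same. The 12 lost calls were all of Igfbp2 with rosiglitazone after ethanol. The count of members called between 4OHT and EtOH, 0 as reported, was 1 in a fit of those groups alone, 1 with an intensity trend, 1 with quantile normalization and 2 with array weights. For the difference of the 4-hydroxytamoxifen effects, the count of 0 was 1 with an intensity trend and ran from 0 to 1 when single arrays were left out. Sign changes concerned differences that were not called: Igfbp7 between 4OHT_Rosi and EtOH_Rosi was -0.011 with array weights, Igf2 with rosiglitazone after 4-hydroxytamoxifen was 0.013 with quantile normalization and 0.013 with median centring, and the Igf1r interaction was -0.007 with array weights and -0.007 with median centring. When single arrays were left out, Igfbp5 between 4OHT and EtOH ran from -0.088 to 0.025, Igfbp2 between 4OHT_Rosi and EtOH_Rosi from -0.12 to 0.097 and Igfbp7 from -0.042 to 0.058. Igf2 ran from -0.07 to 0.12 with rosiglitazone after ethanol, from -0.082 to 0.085 after 4-hydroxytamoxifen and from -0.13 to 0.063 in the interaction, and Igf1r from -0.12 to 0.12 in the interaction. The cause of these changes was not tested.

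The counts over all genes moved by more than 1.5 times in some fits. Between 4OHT and EtOH, 868 genes were called, 2242 with array weights and 475 to 530 without EtOH 2, EtOH 3, 4OHT 1, 4OHT 2 or 4OHT 3. Between 4OHT_Rosi and EtOH_Rosi, 1782 were called, 829 in a fit of those groups alone and 1182 without EtOH_Rosi 2. In the interaction 223 were called, 393 with an intensity trend and 396 with array weights, and 51 to 113 without single arrays other than EtOH_Rosi 1, 4OHT_Rosi 1 and 4OHT_Rosi 2. With a replicate block, the fall of Igfbp2 with rosiglitazone after ethanol lost its call (adjusted p = 0.0801), no other member's call changed, and 116 genes were called in the interaction. In the replicate block fit the further IGF system genes had 0 called for 4-hydroxytamoxifen without and 0 with rosiglitazone (1 and 1 as reported), the signalling genes 1 with rosiglitazone (2 as reported), and the imprinted network 1 in the interaction (2 as reported). No label says whether arrays with the same number share a culture or a batch. The correlation of their deviations from the group means ran from -0.24 to 0.079 over 18 pairs. In 2 of the 18 the same-numbered array was the best match. Between arrays of different numbers it reached 0.316, for EtOH_Rosi 3 and an array of 4OHT_Rosi. Deviations from means of 3 arrays cannot decide whether a batch was shared. No detection call was used here, and the precision rests on 3 arrays per group.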

Other observations

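In the RefSeq gene order (GRCm38.p6), 4 tensin genes, which encode adaptor proteins that link integrins to actin, lie within 2 places of Igfbp3, Igfbp4, Igfbp5 or Igfbp6. Igfbp7, on chromosome 5, has neither a tensin nor another binding protein gene within 2 places. Igfbp2 and Igfbp5 are adjacent protein-coding genes on chromosome 1, with Tns1 second after Igfbp5. On chromosome 11, Igfbp3 lies between Igfbp1 and Tns3, and Igfbp4 lies between Top2a and Tns4. On chromosome 15, Tns2 is second before Igfbp6. These neighbours were looked at after the members' values were seen, and values of the other neighbours are not given here. The calls below stand beside 30.7% of all genes called with rosiglitazone after ethanol (14.4% higher, 16.3% lower). Nothing particular to these places in the genome is read from them. With rosiglitazone after ethanol, Tns3 (-0.67 ± 0.11, adjusted p = 0.000225) and Tns2 (-0.30 ± 0.056, adjusted p = 0.000791) fell, Tns1 rose (0.33 ± 0.069, adjusted p = 0.00218), and Tns4 differed by -0.01 (adjusted p = 0.94). Igfbp1 differed by -0.06 (adjusted p = 0.667). The adjacent Igfbp2 and Igfbp5 correlated at a Pearson's r of 0.62 across the 12 arrays and at -0.20 after subtraction of the group means. Igfbp5 and Tns1 went in opposite directions with rosiglitazone after ethanol, while Igfbp6 and Tns2 both fell. Top2a, a topoisomerase gene of dividing cells next to Igfbp4, fell by 1.24 with rosiglitazone after ethanol (adjusted p = 6.59e-08).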
